A study of Mus musculus with 16 samples.

Results

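The genes described here are 6 transcripts of B lymphocytes and antibody-secreting plasma cells: Jchain, Mzb1, Cd79a, Cd79b, Ms4a1 and Pou2af1. They were chosen by name, as the array rows whose platform gene symbol is 1 of the 6, out of 19505 genes named on the array. Each of the 6 was represented by 1 probe set and had a value in all 16 libraries. Dissociated olfactory mucosa of S100a5-tauGFP mice was sorted by fluorescence, and RNA of the sorted cells was measured on Clariom S arrays. In these mice GFP is tied to S100a5, a calcium-binding protein gene of olfactory sensory neurons.

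Every group carried the same reporter on the C57BL/6 strain and held both sexes at 7 to 12 weeks of age. All 24 mice sat singly in clean-air chambers for 40 hours at 3.1 L of air per minute. From hour 26 they received pulses of 10 seconds every 20 minutes. The 4 groups were odor titled GFP+ and odor titled GFP- (pulses of isoamyl acetate, an ester with a banana smell), and vehicle titled GFP+ and vehicle titled GFP- (pulses of filtered air). Each group had 4 libraries, each from a pool of 3 mice, and both titles were made from every one of the 8 pools. The labels name no other marker in the sort than GFP.

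In all 16 samples the title and the cell type field of the labels name opposite GFP signs, so the libraries are called by their titles throughout. S100a5 itself averaged 15.49 ± 0.31 in odor libraries titled GFP+ and 16.75 ± 0.18 in odor libraries titled GFP- (log2 signal, SD, n = 4 each). In vehicle libraries the means were 15.21 ± 0.47 in those titled GFP+ and 16.39 ± 0.20 in those titled GFP-. It was lower in the library titled GFP+ in 8 of 8 pools. The transcript of the gene that the reporter is tied to thus ran against the titles and with the cell type field. "Sort difference" below means titled GFP+ minus titled GFP-, and its direction is that of the titles. The marker genes of mature olfactory neurons, the labelled target of the reporter, had mean log2 signals of 14.96 to 15.51 in the 16 libraries. Their sort difference is given with the other markers below.

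Jchain encodes the small joining chain that links IgA and IgM into polymers, the forms carried across mucosal surfaces, and is made mostly by plasma cells. Cd79a and Cd79b encode the signalling pair of the B cell receptor, and Ms4a1 encodes CD20, a surface protein of B cells that plasma cells lose. Pou2af1 encodes OCA-B, a B cell coactivator that binds with octamer factors, and Mzb1 encodes an endoplasmic reticulum protein that aids the assembly and secretion of antibodies. In the nose, plasma cells that secrete IgA lie beneath the epithelium and around its glands.

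The stretch of 250 bases before the gene start is shown for Jchain, Cd79a and for Pou2af1, whose product binds with octamer factors. All 3 were called in both treatments, as was Cd79b. No promoter entry was used for Cd79b and Ms4a1, so their stretches are not printed, and neither is that of Mzb1. The sequences are from RefSeq, build GRCm38.p6, printed 5′ to 3′ on the strand of the gene, and capitals mark a match to a searched motif. They lie at chr5:88527898-88528147 on the minus strand for Jchain, chr7:24897247-24897496 on the plus strand for Cd79a, and chr9:51213440-51213689 on the plus strand for Pou2af1.
Jchain: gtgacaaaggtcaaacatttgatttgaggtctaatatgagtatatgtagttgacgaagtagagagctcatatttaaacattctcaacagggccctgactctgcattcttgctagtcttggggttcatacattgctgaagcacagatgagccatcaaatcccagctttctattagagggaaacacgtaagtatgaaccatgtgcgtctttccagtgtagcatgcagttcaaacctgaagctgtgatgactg
Cd79a: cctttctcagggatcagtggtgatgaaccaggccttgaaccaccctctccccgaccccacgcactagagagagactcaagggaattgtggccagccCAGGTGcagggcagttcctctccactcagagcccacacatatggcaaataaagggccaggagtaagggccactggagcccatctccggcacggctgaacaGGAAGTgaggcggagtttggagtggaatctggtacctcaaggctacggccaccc
Pou2af1: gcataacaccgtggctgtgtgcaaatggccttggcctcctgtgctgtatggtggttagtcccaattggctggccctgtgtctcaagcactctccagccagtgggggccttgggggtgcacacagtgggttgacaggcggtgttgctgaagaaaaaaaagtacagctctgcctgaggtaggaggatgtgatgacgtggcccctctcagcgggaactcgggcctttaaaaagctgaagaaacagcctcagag
The motifs searched on both strands were the octamer ATGCAAAT, the E2A motif CAGGTG, the EBF1 core CCCNNGGG and the ETS motif GGAAGT. The Cd79a stretch held CAGGTG at 154 to 149 bases before the start and GGAAGT at 54 to 49 bases before it, both in the direction printed. No full match to any of the 4 motifs was found in the Jchain and Pou2af1 stretches. Over 32851 promoters of the same length, 1.6% held the octamer, 17.2% CAGGTG, 11.8% CCCNNGGG and 19.7% GGAAGT.

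The first question was in which sorted fraction these transcripts lay. Jchain, Cd79a and Cd79b rose in libraries titled GFP+ under both treatments, Ms4a1 rose under vehicle, and no member fell. Background on each array was taken as the median of its negative control probe sets, which lay between 5.15 and 5.67 (log2 signal) in the 16 libraries. No member was above this level in any of the 8 libraries titled GFP-. In libraries titled GFP+, Jchain, Cd79a and Cd79b were above it in 8 of 8, Ms4a1 in 5 of 8, Pou2af1 in 1 of 8 and Mzb1 in 0 of 8. Bulk RNA does not separate fewer cells of a type from less RNA per cell, so the values below are levels in the sorted fraction as a whole.

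Jchain, the joining chain gene, had log2 signals of 10.87, 10.30, 8.65 and 8.88 in pools 1 to 4 of the odor libraries titled GFP+, against 4.21, 3.61, 4.63 and 3.35 in the odor libraries titled GFP-. In vehicle pools it had 10.23, 9.63, 9.50 and 9.59 in libraries titled GFP+, against 3.93, 3.61, 3.93 and 3.92 in those titled GFP-. The lowest library titled GFP+ stood far above the highest titled GFP- in either treatment. The sort difference was 5.73 ± 0.40 (SE) under odor, with an adjusted p of 9.12e-09 by limma with Benjamini-Hochberg adjustment over 22206 probe sets. Under vehicle it was 5.89 ± 0.40, with a limma adjusted p of 7.54e-09. Both titles of a pool come from the same mice, and this fit does not use that pairing. With the pool as a block, the limma adjusted p was 2.5e-06 under odor and 2.17e-06 under vehicle. Since all libraries titled GFP- were at background, the fold is a bound: set against the median negative control of each such array, Jchain was at least 18.7-fold higher under odor and at least 18.8-fold higher under vehicle. It was also the member that passed the 95th percentile of the negative controls most often, in 2 of 4 odor and 3 of 4 vehicle libraries titled GFP+. Cd79a passed that stricter bar in 1 vehicle library titled GFP+, and Cd79b, Ms4a1, Pou2af1 and Mzb1 passed it in 0 of 16 libraries.

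Cd79a, the alpha chain of the receptor's signalling pair, had 8.04, 9.25, 6.92 and 6.07 in odor libraries titled GFP+, against 4.55, 4.91, 4.75 and 5.38 in those titled GFP-. Under vehicle it had 7.02, 9.51, 7.24 and 7.26 in libraries titled GFP+, against 3.98, 4.94, 4.70 and 5.06 in those titled GFP-. The groups did not overlap, but the odor libraries titled GFP+ spread widely, with pool 4 only a little above its background. The sort difference was 2.67 ± 0.58 (SE, limma adjusted p = 0.00286) under odor and 3.09 ± 0.58 (limma adjusted p = 0.000864) under vehicle. Against the background level this came to at least 4.35-fold and at least 4.75-fold. With the pool as a block, the limma adjusted p was 0.00494 under odor and 0.00229 under vehicle.

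Cd79b, the beta chain, had 7.56, 7.62, 5.86 and 5.87 in odor libraries titled GFP+, against 4.41, 4.60, 4.29 and 4.63 in those titled GFP-. Under vehicle it had 6.39, 7.75, 6.37 and 6.30 in libraries titled GFP+, against 4.54, 4.67, 4.58 and 4.37 in those titled GFP-. Again the groups did not overlap. The sort difference was 2.25 ± 0.38 (SE, limma adjusted p = 0.000298) under odor and 2.16 ± 0.38 (limma adjusted p = 0.000462) under vehicle, or at least 2.42-fold and at least 2.29-fold against background. With the pool as a block, the limma adjusted p was 0.000734 under odor and 0.00102 under vehicle.

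Ms4a1, the CD20 gene, had 5.07, 5.80, 4.70 and 4.42 in odor libraries titled GFP+, against 4.66, 4.56, 4.18 and 4.31 in those titled GFP-. Under vehicle it had 6.16, 6.08, 5.79 and 5.44 in libraries titled GFP+, against 4.76, 4.31, 4.00 and 4.13 in those titled GFP-. The odor groups overlapped and only pool 2 of the odor libraries titled GFP+ was above background, whereas the vehicle groups were apart and all 4 vehicle libraries titled GFP+ were above it. The sort difference was 1.56 ± 0.25 under vehicle (SE, limma adjusted p = 0.000203), at least 1.28-fold against background. Under odor it was 0.57 ± 0.25 with a limma adjusted p of 0.127, and with the pool as a block the adjusted p was 0.0374. Without odor pool 4 titled GFP+ it was 0.046. With values below background raised to it, the vehicle difference was 0.36 with a limma adjusted p of 0.0584.

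Pou2af1, the octamer coactivator gene, had 4.13, 5.05, 3.67 and 4.05 in odor libraries titled GFP+, against 3.29, 2.99, 3.23 and 3.22 in those titled GFP-. Under vehicle it had 3.90, 5.39, 4.25 and 4.06 in libraries titled GFP+, against 3.63, 3.19, 3.56 and 3.32 in those titled GFP-. The groups did not overlap in either treatment, yet all values but that of vehicle pool 2 titled GFP+ were below background, so no fold is given. The limma adjusted p was 0.0176 under odor and 0.0289 under vehicle, and with the pool as a block the vehicle value was 0.0546. Without pool 2 titled GFP+ the limma adjusted p was 0.0593 under odor and 0.0902 under vehicle, and without the vehicle libraries titled GFP- of pools 2 and 4 it was 0.0786 and 0.0648. With values below background raised to it, the differences turned to -0.09 under odor and -0.20 under vehicle on the log2 scale.

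Mzb1, the gene of the antibody assembly factor, was between 3.11 and 4.01 in odor libraries titled GFP+, against 3.18 to 3.49 in those titled GFP-. Under vehicle it was between 3.52 and 3.99 in libraries titled GFP+, against 3.08 to 3.84 in those titled GFP-. All 16 values were not above background and the groups overlapped. The limma adjusted p was 0.462 under odor and 0.33 under vehicle.

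**Figure D1:**
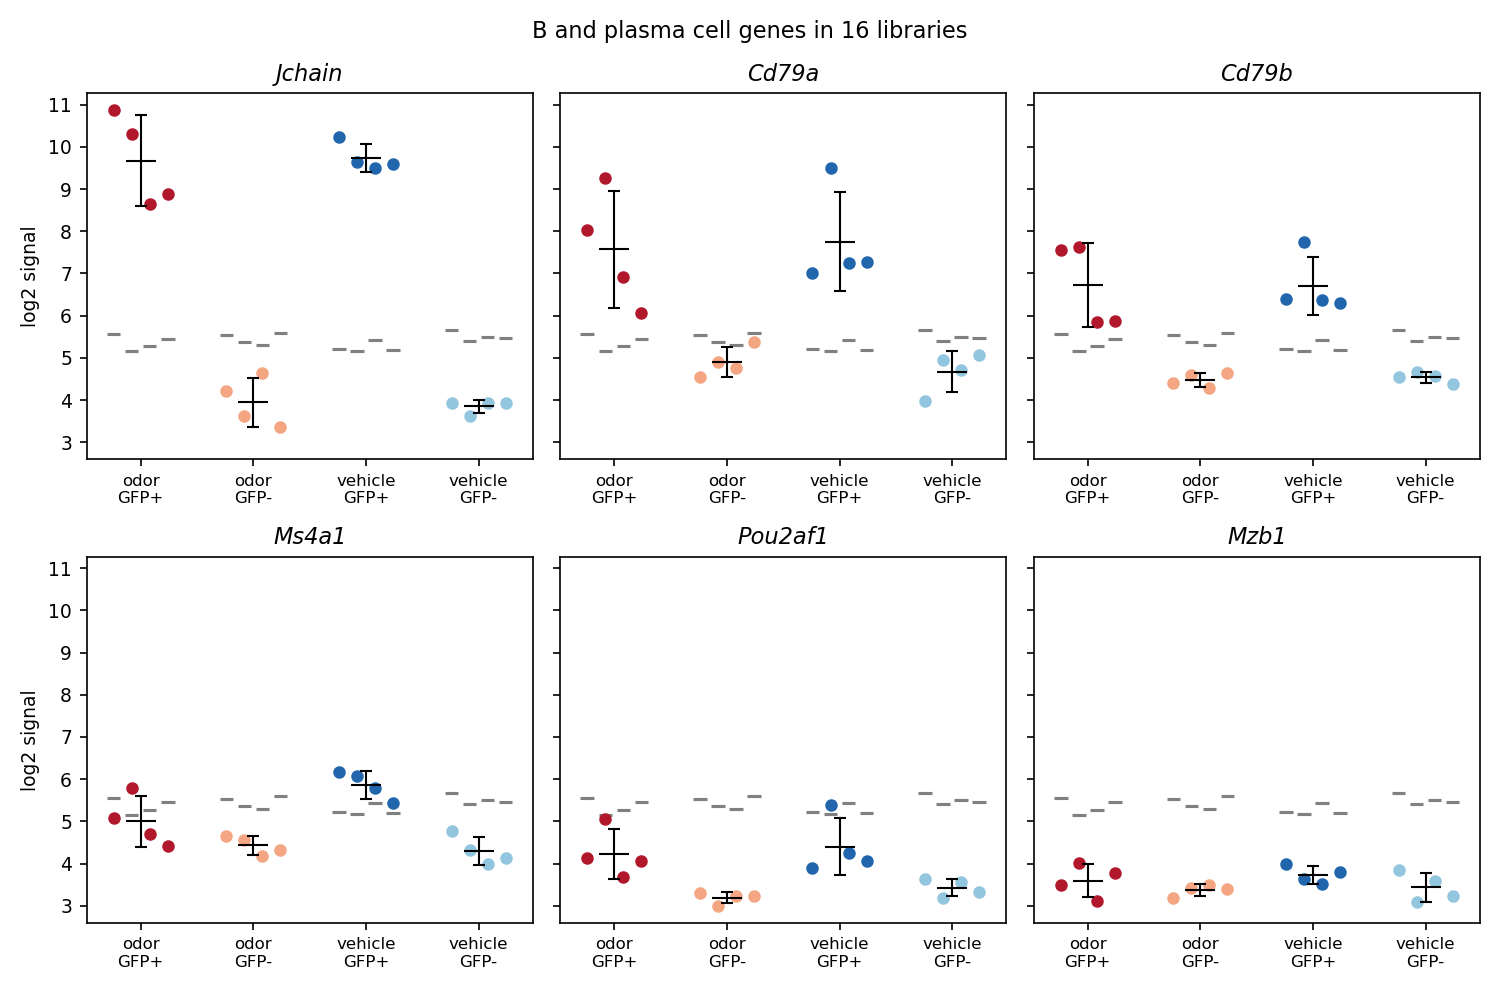
Deposited log2 signal (vertical axis) of the 6 genes in the 16 libraries, by treatment and title. Points are pools 1 to 4 from left to right, black bars the group mean and SD (n = 4), and grey ticks the median negative control of each array. Jchain, Cd79a and Cd79b lie above the grey ticks in all 8 libraries titled GFP+, and no gene does in a library titled GFP-.

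In count, 4 of 6 members were called higher in libraries titled GFP+ under odor, where 11% of all 22206 probe sets were, and 5 of 6 under vehicle, where 10.2% were. In the lower direction 0 of 6 were called in each treatment, where 9.86% of all probe sets were under odor and 7.16% under vehicle. All 4 libraries titled GFP+ lay above all 4 titled GFP- for 4 members under odor, where 10.5% of probe sets did so, and for 5 under vehicle, where 11.3% did. The members' median sort difference was 1.64 under odor and 1.86 under vehicle, beside -0.14 and -0.13 for all probe sets. Within pools, the library titled GFP+ was the higher in 8 of 8 pools for Jchain, Cd79a, Cd79b, Ms4a1 and Pou2af1, and in 6 of 8 for Mzb1. As deposited, the difference within a pool ran from 4.03 to 6.69 for Jchain, from 0.69 to 4.57 for Cd79a and from 1.24 to 3.15 for Cd79b (log2). The libraries titled GFP- were at background, so these sizes are not exact. With the values of those libraries raised to their median negative control, the lower bounds ran from 3.29 to 5.33 for Jchain, from 0.49 to 4.11 for Cd79a and from 0.29 to 2.35 for Cd79b. Cd79a had its lowest bound in odor pool 4.

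**Figure D2:**
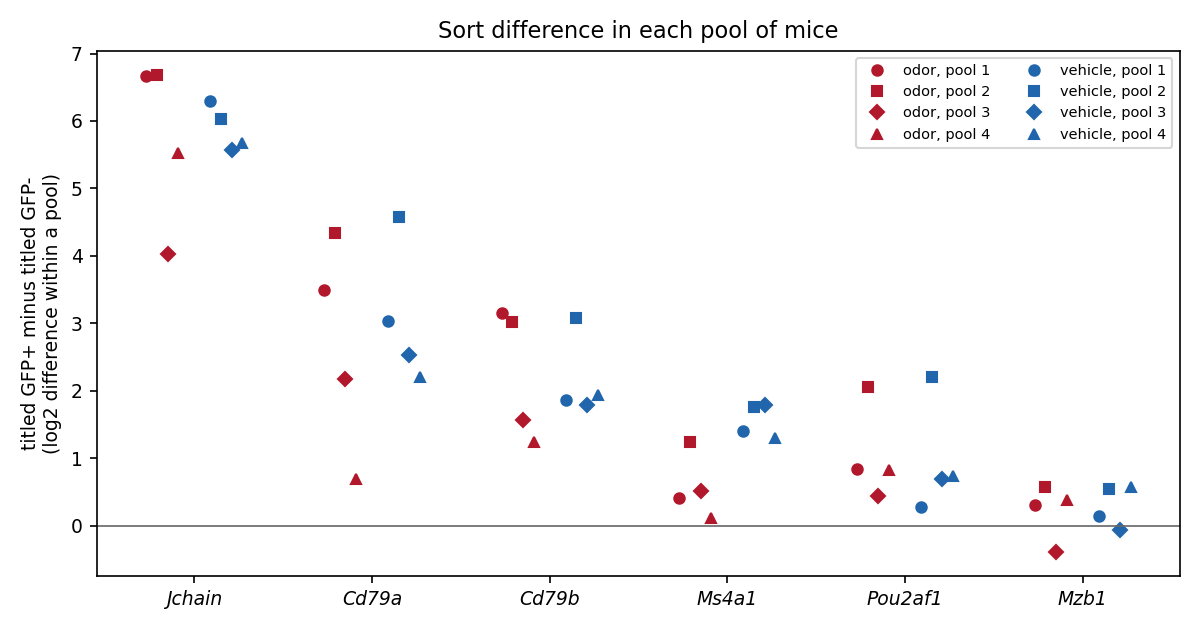
Log2 difference between the library titled GFP+ and the library titled GFP- of the same pool (vertical axis) for each gene, with odor pools in red and vehicle pools in blue and a marker shape for each pool number. Values of libraries titled GFP- were at background, so sizes are not exact. Jchain lies between 4.03 and 6.69 in the 8 pools, and Mzb1 falls on both sides of 0.

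The second question was whether odor changed these levels. In libraries titled GFP+, 0 of 6 members were called between odor and vehicle by limma after adjustment, where 0.00901% of all probe sets were, and 1 had an unadjusted p under 0.05, where 4.83% of all probe sets did. Jchain averaged 9.68 ± 1.08 in odor libraries and 9.74 ± 0.33 in vehicle libraries (log2 signal, SD, n = 4 each), a difference of -0.06 with a 95% interval of -0.90 to 0.78. Cd79a averaged 7.57 ± 1.38 in odor libraries and 7.76 ± 1.17 in vehicle libraries, and the interval of the difference ran from -1.42 to 1.05. Cd79b averaged 6.73 ± 0.99 in odor libraries and 6.70 ± 0.70 in vehicle libraries, with an interval of -0.79 to 0.83. These intervals use a spread shared by all 4 groups. Within each treatment, libraries titled GFP- varied less than those titled GFP+ for these 3 genes. The intervals are thus narrower than libraries titled GFP+ alone would give. The intervals of these 3 genes all span 0, and the sign of the difference turned when single libraries were left out: it ran from -0.46 to 0.28 for Jchain (without odor pool 1 and without odor pool 3, both titled GFP+), and from -0.74 to 0.40 for Cd79a and -0.27 to 0.37 for Cd79b (without odor pool 2 and without vehicle pool 2, both titled GFP+).

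Ms4a1 was the member with the unadjusted p under 0.05. It averaged 5.0 ± 0.60 in odor libraries titled GFP+ and 5.87 ± 0.33 in vehicle libraries titled GFP+ (log2 signal, SD, n = 4 each). The difference was -0.87 ± 0.25 (SE, 95% interval -1.41 to -0.33), with an unadjusted limma p of 0.0034 and an adjusted p of 0.968. Over the alternative ways of processing, the difference ran from -0.98 to -0.35. The odor library was the lower in 4 of 4 pairs of the same pool number, by differences of -1.10, -0.27, -1.09 and -1.02. The groups overlapped, since odor pool 2 at 5.80 was above vehicle pools 3 and 4. Blocking on the pool number gave an adjusted p of 0.269. It was above background in 1 of 4 odor libraries, so most odor values give only a bound. Its SE, interval and p also draw on the spread of libraries titled GFP-, with SDs of 0.22 under odor and 0.33 under vehicle.

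In libraries titled GFP-, where no member was above background, 0 of 6 were called between odor and vehicle by limma (0.018% of all probe sets were) and 0 had an unadjusted p under 0.05 (3.3% of all probe sets did). The sort difference under odor minus that under vehicle was called by limma for 0 of 6 members (0.0045% of all probe sets), and 1 had an unadjusted p under 0.05 (2.94% of all). That member was again Ms4a1, at -0.99 with an unadjusted p of 0.0136 and an adjusted p of 1. Over the alternatives this value of Ms4a1 ran from -1.16 to -0.29. The same vehicle libraries titled GFP+ enter both of its comparisons.

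**Figure D3:**
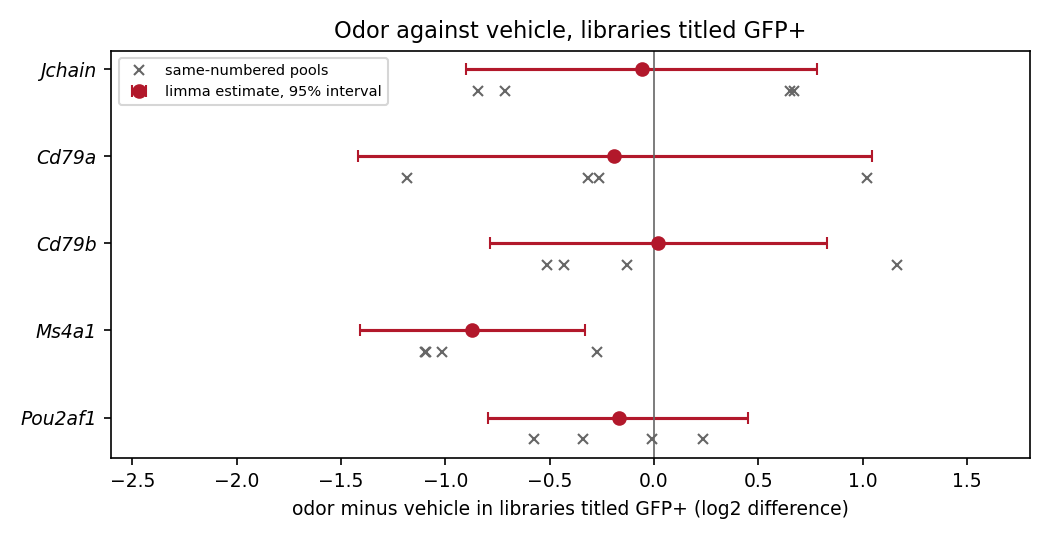
Odor minus vehicle in libraries titled GFP+ (horizontal axis, log2 difference) for the 5 genes above background in at least 1 library. Red points and bars are the limma estimate and its 95% interval (n = 4 libraries each), and crosses are differences between pools of the same number. The interval of Ms4a1, -1.41 to -0.33, lies below 0 before adjustment, and those of the other genes span 0.

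The levels varied widely among pools of the same group. In odor libraries titled GFP+, the highest pool exceeded the lowest 9.04-fold for Cd79a, 4.67-fold for Jchain and 3.39-fold for Cd79b. In vehicle libraries titled GFP+ the ranges were 5.63-fold for Cd79a, 1.66-fold for Jchain and 2.72-fold for Cd79b. The SD among pools, pooled over both treatments, was 1.28 for Cd79a, larger than that of 99.8% of the 12765 probe sets above background in all 8 libraries titled GFP+. It was 0.86 for Cd79b (larger than 98.7%) and 0.80 for Jchain (larger than 98.0%), beside a median of 0.25 for those probe sets. That set was not matched to the members in signal level. A wide spread was not particular to the members. In libraries titled GFP+, Spib had SDs of 1.24 under odor and 0.75 under vehicle, and Cd37 had 0.99 and 0.48, whereas Irf8 had 0.29 and 0.21.

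The members did not share 1 order of pools. Cd79a, Cd79b and Pou2af1 were highest in pool 2 of either treatment, though Cd79b in odor pool 1 was close behind. Jchain was highest in pool 1 and lowest in pool 3 of either treatment. In vehicle, pool 2 held by far the highest Cd79a and Cd79b, at 9.51 and 7.75, while its Jchain of 9.63 was close to that of pools 3 and 4. Pools 2 titled GFP+ also had the lowest median negative control of their groups, at 5.15 under odor and 5.17 under vehicle, and the part of this in the result was not tested.

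Over the 8 libraries titled GFP+, after subtracting the mean of each treatment, Cd79a followed Cd79b with a Pearson r of 0.93 and a Spearman rho of 0.79. Without the 2 libraries farthest from the median of Cd79a, r was 0.89. Cd79a and Pou2af1 had r = 0.89 and rho = 0.79, but r = 0.26 without the 2 farthest libraries, so that likeness rested on those libraries. Jchain had r = 0.73 with Cd79b, 0.51 with Cd79a and 0.28 with Pou2af1. These values describe 8 libraries of the same sort and carry no p.

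**Figure D4:**
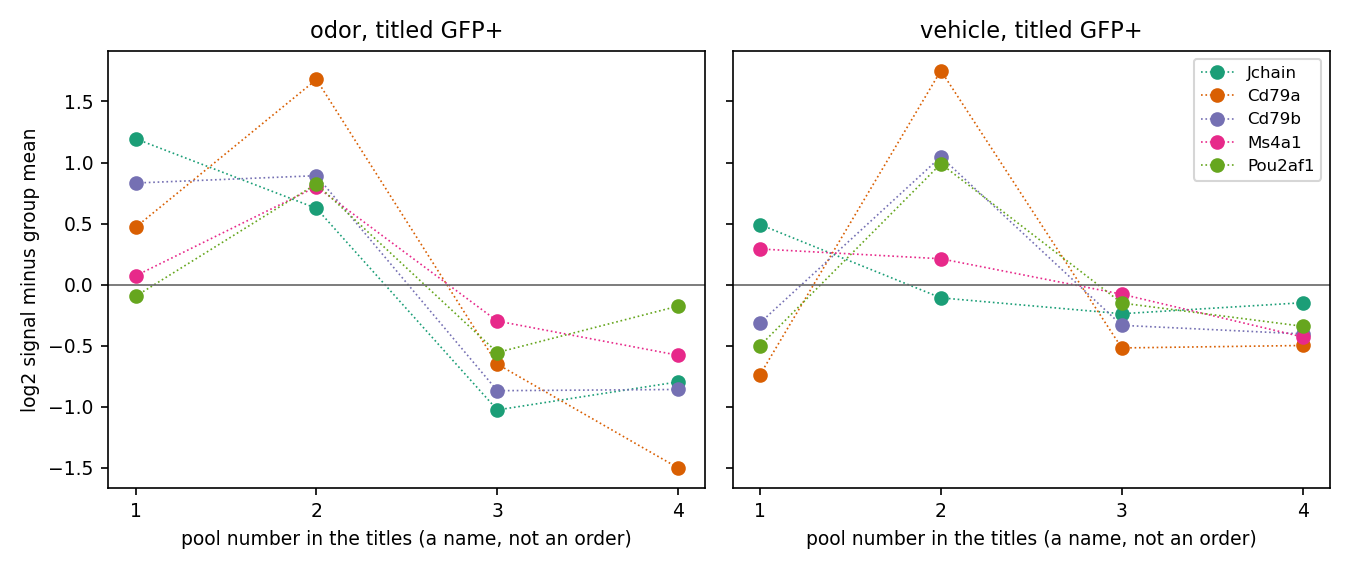
Log2 signal minus the mean of the group (vertical axis) in libraries titled GFP+, by pool number as given in the titles, with odor on the left and vehicle on the right. Dotted lines join the values of 1 gene and stand for no order of the pools. Cd79a, Cd79b and Pou2af1 peak in pool 2 of both treatments, and Jchain in pool 1.

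Among 11299 named genes above background in all 8 libraries titled GFP+, those whose pool deviations were most like Jchain were Hpgd, Alcam, Hexa, Ipcef1 and Cldn15, with r of 0.99 to 0.98. Hpgd encodes the enzyme that breaks down prostaglandins, and Alcam an adhesion molecule. Those most like Cd79a were Olfr823, Ctbp1, Sass6, Mcm2 and Ahsa2 (r of 0.99 to 0.97), of which Sass6 builds centrioles and Mcm2 belongs to the replicative helicase. Those most like Cd79b were Noc2l, Trip12, Sgo1, Stxbp3 and Smc2 (0.99 to 0.98), of which Sgo1 and Smc2 act on chromosomes in cell division. For Ms4a1 they were Pclo, Top2a, Sltm, Pcca and Cyp2j12 (0.98 to 0.97), for Pou2af1 Slfn8, Lmtk2, Ankfy1, Rc3h2 and Bcr (0.97 to 0.94), and for Mzb1 Plekhg1, Prune1, Ctr9, Ddx54 and Npm1 (0.98 to 0.95). Mzb1 was above background in 0 of these 8 libraries and Pou2af1 in 1, so their rankings follow signal at background. These are the highest values of a ranking over 8 libraries of the same sort, given as a description.

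Over all 16 libraries, the genes most like the mean of the 6 members were Spib, Olfr686, Ets1, H2ax, Slc1a5, Tpx2, Rhag, Map3k1, Pdzk1ip1 and Cpt1a. The 16 libraries fall into separate clusters by title, so r is also given within the 8 libraries titled GFP+. There r with the members' mean deviation was 0.87 for Rhag to 0.97 for H2ax. Spib, a transcription factor of B cells and plasmacytoid dendritic cells, had r = 0.96 there. Rhag is known from red cell precursors and Tpx2 from the mitotic spindle. These genes were picked by r over all 16 libraries, the same 8 included, so the values within the 8 only describe them. Slc1a5 and Tpx2 were not above background in all 8, and the members' mean includes Mzb1 and Pou2af1, mostly at background.

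The other genes of the B lineage are given by role, and the lists were not tested against each other. Of all probe sets, 11% were called higher under odor and 10.2% under vehicle. Of 10 measured genes of B cell receptor signalling, 9 were called higher in libraries titled GFP+ under odor and 10 under vehicle, with median differences of 2.43 and 2.58. Prkcb, a protein kinase C gene, had a difference of 4.83 under odor and 4.34 under vehicle, but was above background in 1 of 4 libraries titled GFP- of either treatment. With the other values raised to background its differences were 4.09 and 3.68. Vav1, an exchange factor gene of blood cells, differed by 4.01 and 3.59. Plcg2, the phospholipase below the receptor, was at least 5.37-fold higher under odor and at least 3.97-fold under vehicle, and the phosphatase gene Ptpn6 differed by 2.59 and 2.77. Myeloid cells also use these 4 genes.

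Of 13 measured genes of the B cell surface, 6 were called higher under odor and 5 under vehicle. Cd37, a tetraspanin of blood cells, was at least 63.0-fold higher under odor and at least 58.8-fold under vehicle. Tnfrsf13c, the BAFF receptor gene, differed by 2.06 and 2.01, Cd72, an inhibitory coreceptor, by 1.78 and 2.02, and the class II gene H2-Ob was at least 1.72-fold and at least 1.86-fold higher. Cd22, the other gene called under odor besides these and Tnfrsf13b, was above background in no library, as were Cr2, Cxcr5 and Siglecg.

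Of 9 measured B cell transcription factors, 3 were called higher under odor and 2 under vehicle. Spib was at least 5.56-fold higher under odor and at least 6.58-fold under vehicle. Irf8, a factor of B and myeloid cells, differed by 0.89 and 0.62. Ikzf3 was called under odor, at log2 means of 4.55 in libraries titled GFP+ and 3.62 in those titled GFP-. It was above background in only 1 of 4 odor libraries titled GFP+ and in no library of the other groups. Pax5, the factor that defines B cell identity, had limma adjusted p values of 0.248 under odor and 0.367 under vehicle and was above background in 2 of 4 odor and 1 of 4 vehicle libraries titled GFP+. Ebf1, which olfactory neurons also express, averaged 16.6 to 16.9 in the 4 groups and was not called.

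Of 9 measured genes of early B cells, 4 were called higher under odor and 3 under vehicle. Il7r, the interleukin 7 receptor gene, which T cells also use, was at least 10.5-fold higher under odor and differed by 3.85 under vehicle. Bst1 differed by 2.97 under odor and 2.30 under vehicle, and was above background in 3 of 4 odor and 4 of 4 vehicle libraries titled GFP-. The part of other cell types in these differences was not tested. Cd93 had log2 means of 5.44 in odor libraries titled GFP+ and 3.37 in those titled GFP-, and 5.12 in vehicle libraries titled GFP+ and 3.40 in those titled GFP-, near or below background. Dntt was called under odor but was above background in no library, and with the pool as a block its adjusted p was 0.0534. Vpreb1, Vpreb2 and Rag2 were above background in no library.

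Of 16 measured plasma cell genes other than the members, 4 were called higher under odor, where 11% of all probe sets were, and 3 under vehicle, where 10.2% were. Their median differences were 0.12 and 0.15. Slamf7, a surface protein of plasma cells and other leukocytes, was at least 2.85-fold higher under odor and at least 2.69-fold under vehicle. Edem1, a gene of protein quality control in the endoplasmic reticulum, differed by 1.06 and 0.98. Xbp1, the secretory programme's transcription factor, averaged 12.43 in odor libraries titled GFP+ and 12.04 in those titled GFP- and was called under vehicle alone, at 0.68, and whether the treatments differ was tested only by the interaction, in which no gene of the lists was called. Prdm1, the plasma cell regulator Blimp1, was called under odor at log2 means of 5.0 in libraries titled GFP+ and 3.99 in those titled GFP-, above background in none of these. Irf4, Tnfrsf17, Derl3, Eaf2 and Fkbp11 were above background in no library. None of the 14 immunoglobulin constant and variable genes looked for was matched to a probe set by symbol, so antibody transcripts themselves were not analysed here.

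Genes that move, hold or export IgA cells were measured in 14 cases, of which 7 were called higher under odor, and 6 higher and 1 lower under vehicle. Cxcr4, the receptor that retains plasma cells and neutrophils, differed by 6.04 under odor and 5.73 under vehicle. Itga4, an integrin chain of lymphocyte homing, differed by 2.52 and 2.66, and Il6, a plasma cell survival cytokine, was at least 1.52-fold and at least 1.56-fold higher. Ccr9, a gut homing receptor, was above background in 2 of 4 libraries titled GFP+ of either treatment. Cxcl13, which draws B cells, was the gene called lower under vehicle, below background in every library. Pigr, the epithelial carrier of polymeric IgA, was above background in no library. Of 12 chaperones of the endoplasmic reticulum, where Mzb1 acts, 1 was called in each treatment, Dnajb11, which was lower in libraries titled GFP+ by differences of -0.41 under odor and -0.43 under vehicle. With the pool as a block, 2 were called under odor and 4 under vehicle: Dnajb11 and Dnajb9 were lower in both, and Pdia6 and Sel1l were higher under vehicle, by 0.53 and 0.41.

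**Figure D5:**
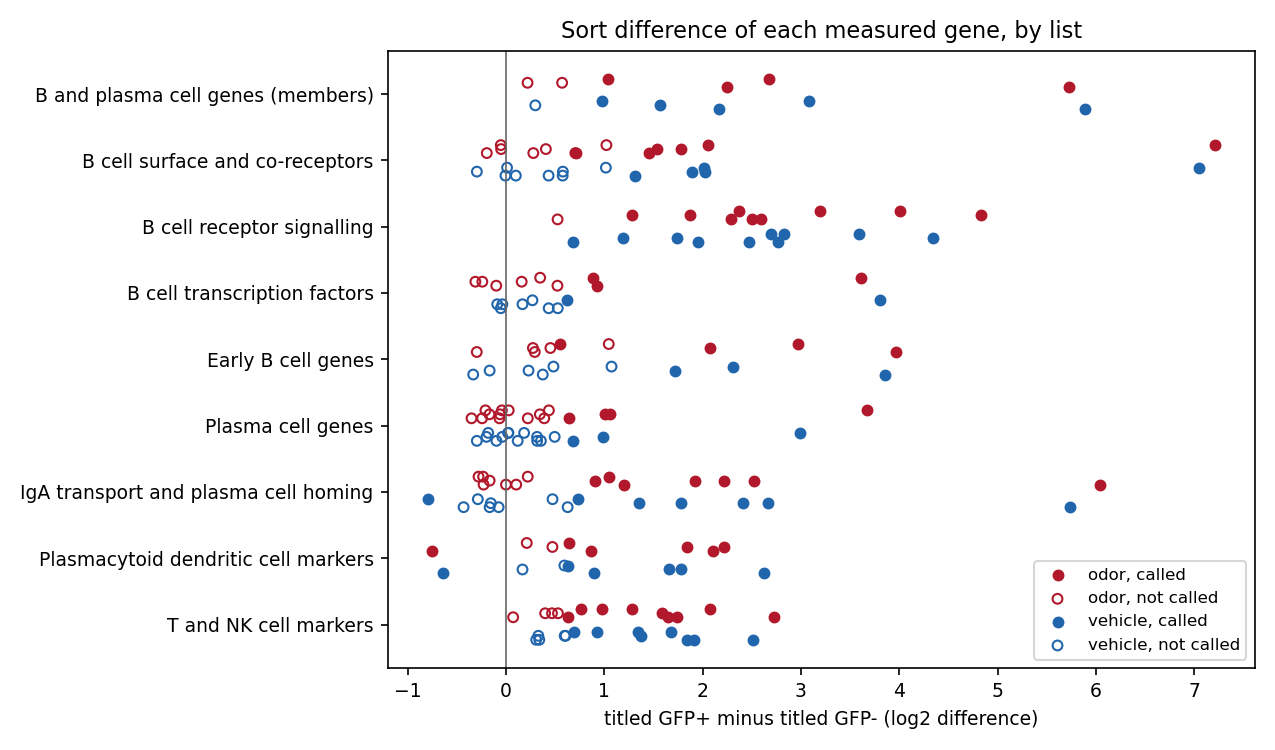
Sort difference (horizontal axis, log2, titled GFP+ minus titled GFP-) of each measured gene in the members, 6 related gene lists and 2 lists of other blood cells. Odor is in red and vehicle in blue, and filled points passed an adjusted p of 0.05. The receptor signalling genes lie to the right of 0, and most plasma cell genes lie near it.

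Many markers of other blood cells and of sustentacular cells were also called higher in libraries titled GFP+. All 12 neutrophil markers were called higher in both treatments, with median differences of 8.74 under odor and 8.27 under vehicle, and their mean log2 level was 13.3 to 15.2 in odor libraries titled GFP+ and 13.7 to 14.3 in vehicle libraries titled GFP+. Of 13 T and NK cell markers, 9 were called higher under odor and 8 under vehicle, Cd3e by at least 3.31-fold and at least 3.01-fold. Of 11 macrophage and dendritic cell markers 8 were higher under odor and 10 under vehicle, among them the class II genes H2-Aa and H2-Ab1, which B cells also express. Of 8 plasmacytoid dendritic cell markers, 5 were higher and 1 lower in each treatment, with Ly6d, which B cells share, at least 2.45-fold and at least 2.89-fold higher. Of 5 erythroid markers 2 were higher under odor and 4 under vehicle, and of 11 sustentacular markers 9 were in each. Of 18 genes listed as mature olfactory neuron markers, 1 was called higher (Slc8b1) and 3 lower (Pde1c, Ano2 and Ckb) in each treatment. The median differences of the 18 were -0.26 under odor and -0.18 under vehicle. Slc8b1 was unlike these 3 in level. It averaged 6.06 in odor and 5.93 in vehicle libraries titled GFP+ and was above background in no library titled GFP-. Pde1c, Ano2 and Ckb averaged 14.91 or more in every group. With the pool as a block, 7 neuron markers were called under odor and 5 under vehicle, 1 of them higher in each.

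The pool deviations of Jchain and Cd79a were also set against those of the lists, over the 8 libraries titled GFP+. The median r of the sustentacular markers was 0.81 with Jchain and 0.29 with Cd79a, and that of the neutrophil markers was 0.71 with Jchain and 0.25 with Cd79a. The macrophage and dendritic markers had a median r of 0.79 with Jchain and 0.66 with Cd79a, and the receptor signalling genes 0.84 and 0.64. The plasma cell genes had only 0.18 with Jchain and 0.13 with Cd79a, and the IgA and homing genes 0.20 and 0.07. For the plasmacytoid dendritic cell markers both values were 0.34. In some lists the value was the higher for Cd79a. The 3 erythroid markers above background in all 8 libraries had 0.66 with Jchain and 0.78 with Cd79a. The B cell surface genes had 0.56 and 0.63, and the chaperones 0.28 and 0.50. The B cell transcription factors had -0.14 and 0.13, and the mature neuron markers -0.36 and 0.08. The 3 T and NK markers above background in all 8 libraries had -0.07 with Jchain and 0.19 with Cd79a. These medians share the same 8 libraries, their difference was not tested, and the part of these cells in the members' values was not tested.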

How the data were processed

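The authors deposited 1 log2 signal for each probe set on each array. The submitters' processing notes name Affymetrix Expression Console. The sources used here do not state how that program corrected background or normalized. Array medians were 6.80 to 6.90 in odor libraries titled GFP+ and 6.42 to 6.52 in those titled GFP-, so the deposited values share no common median. Biotinylated cRNA came from 50 to 100 ng of total RNA, per the labels' protocols. Of 28846 probe sets, 6640 controls (5222 of them negative) were left out, and 22206 were tested. A symbol came with 19572 of these, several with 0 and none with 2634. A value at or under the median negative control of its array is called not above background. The number of arrays limits the precision.

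Groups came from the titles. The values were used as deposited, in 1 limma 3.58.1 fit (R 4.3.3) of 16 arrays in 4 groups with 12 residual degrees of freedom, checked on simulated data. P-values were adjusted by Benjamini-Hochberg with a threshold of 0.05. They measure the spread between pools of 3 mice, as 1 value per gene shared by the 4 groups. Cd79a had SDs of 0.36 (odor) and 0.48 (vehicle) in libraries titled GFP-, against 1.38 and 1.17 in those titled GFP+. Its comparison of odor and vehicle in libraries titled GFP+ thus borrows the smaller spread of the others. With only the groups of that comparison fitted, 0 of 6 members were called. For "at least" folds, the values of libraries titled GFP- were raised to the median negative control. Members and gene lists were chosen with earlier results of these data known. Named are all members, up to 4 genes per list that were called with the largest mean sort difference, and the genes most like the members by Pearson r, without provisional symbols. Other genes are named only where they were called or were below background throughout, chosen after their values were seen, as were Pax5, Ebf1 and Pigr.

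The pool number pairs libraries: both titles of a number come from the same 3 mice of 24, and their deviations correlated at 0.16 to 0.40 in 8 of 8 pairs. Between odor and vehicle libraries titled GFP+ of the same number the correlations were 0.17 to 0.28. In all, 11 alternatives and 16 fits without 1 array were run.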

Additional observations from a re-analysis of the deposited data

Results flagged for a closer look

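Of 24 sets of 4 libraries (6 genes in 4 groups), 3 held a library that stood apart from the other 3 by Dixon's ratio at its 95% level, which chance does in about 5% of such sets. Cd79a in vehicle pool 2 titled GFP+ had a log2 signal of 9.51, with a ratio of 0.904. Cd79b in the same library had 7.75, with a ratio of 0.938. Both are the same RNA on the same array, so they are not separate events. Jchain in vehicle pool 2 titled GFP- had 3.61, with a ratio of 0.980, but that value and the other 3 of its group were not above background.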

How the results depend on the processing

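The sort differences of Jchain, Cd79a and Cd79b kept their direction and their side of the threshold under all 11 alternatives and without any 1 of the 16 libraries, and over the alternatives ran from 4.23 to 6.01 under odor and 4.23 to 6.15 under vehicle for Jchain (log2), 2.12 to 2.96 and 2.25 to 3.34 for Cd79a, and 1.28 to 2.53 and 1.20 to 2.42 for Cd79b. The lowest of Cd79b came with values raised to the median negative control, at adjusted p values of 0.03 under odor and, just inside the threshold, 0.05 under vehicle. Members called numbered 3 to 5 under odor and 4 to 5 under vehicle without 1 library, beside 4 and 5. Of all 22206 probe sets, 3571 to 4637 were then called under odor and 3201 to 4002 under vehicle. Raising values to the median negative control left 3 called in each treatment, since the values of the dim genes are then tied to it. Over all probe sets 3780 were then called under odor, 1897 of them higher. That floor also turned the sort difference of Pou2af1 to -0.093 under odor and -0.20 under vehicle, and of Mzb1 to -0.093 and -0.26. Centring on array medians turned Mzb1 to -0.15 and -0.074, and gave 0.60 with an adjusted p of 0.0678 for Pou2af1 under vehicle. Centring on mature neuron markers gave Ms4a1 under odor 0.86 with an adjusted p of 0.0435.

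With the pool as a replicate block, 5 members were called under odor and 4 under vehicle: Ms4a1 under odor was gained at an adjusted p of 0.0374 and Pou2af1 under vehicle was lost at 0.0546. The calls over all 22206 probe sets rose too, to 5787 under odor (2640 higher), beside 4638 (2449 higher). Over the 11 alternatives, the probe sets called under vehicle numbered 2994 to 15630. This block changed no other call of a member, and of the related B lineage and IgA lists it changed Dntt and Txndc5 under odor. Among the endoplasmic reticulum chaperones it called 2 under odor and 4 under vehicle, beside 1 and 1. It called 0 probe sets in the interaction, beside 1. With the pool number as a block across treatments, 5 members were called in each treatment, with Ms4a1 under odor at 0.031, and 3 probe sets in the interaction and 1 between odor and vehicle in libraries titled GFP+, beside 1 and 2. That fit called 5571 of all probe sets in the sort difference under odor, 2629 of them higher. Between odor and vehicle in libraries titled GFP+, 0 probe sets were called after median centring, centring on the negative controls, with array weights, or with only the 2 groups compared, 1 with an intensity trend, and 0 to 6 without 1 library. The interaction had 1 to 2 without 1 library.

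Differences near 0 changed sign. Between odor and vehicle in libraries titled GFP+, Cd79b was -0.084 with centring on negative controls and -0.054 with array weights, Jchain 0.085 with centring on mature neuron markers and Pou2af1 0.051 with the floor. In the interaction Cd79b was -0.081 and Pou2af1 -0.10 with centring on negative controls. Without 1 library the interaction ran from -0.97 to 0.17 for Cd79a, -0.21 to 0.43 for Cd79b, -0.56 to 0.18 for Jchain and -0.21 to 0.40 for Pou2af1. The odor difference ran from -0.46 to 0.28 for Jchain, -0.74 to 0.40 for Cd79a, -0.27 to 0.37 for Cd79b and -0.45 to 0.16 for Pou2af1. None of these was called.

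Median centring called 15554 probe sets under odor, 12.1% of them higher, and 15630 under vehicle, 11.3% higher, beside 4638 (52.8% higher) and 3851 (58.7% higher). It moved the median of all probe sets to -0.50 in each, beside -0.14 and -0.13. Called probe sets were higher in 41.4% and 42.1% after quantile normalization, 84.8% and 78.3% after centring on mature neuron markers, and 75.5% and 86.1% after centring on negative controls. The last 2 moved that median to 0.15 and 0.02, and to -0.05 and 0.13. The causes were not tested. Signal near background limits what can be said of Ms4a1, Pou2af1 and Mzb1. Cd79a and Cd79b were above the median negative control in all libraries titled GFP+, but above its 95th percentile in only 1 and 0 of 16 libraries.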
